A study of Mus musculus with 2 samples.

Results

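The secretory and ciliated epithelium spots are the 50 of 1993 barcodes in which 8 epithelial genes took the highest share of the gene UMIs. A UMI (unique molecular identifier) marks 1 captured RNA molecule. The 8 genes are Wfdc2, Muc5b, Lypd2, Cbr2, Krt8, Krt18, Ccdc153 and Pglyrp1, and the remaining 1943 barcodes served as the comparison. SPARC-seq, in which RNA and open chromatin are read from the same barcodes, was applied to brain tissue of E18.5 C57BL/6 mouse embryo homozygous for the Ctcf R567W mutation, which had been made with CRISPR/Cas9. There was 1 RNA library and 1 chromatin (ATAC) library of this genotype. All barcodes, members and others alike, carried the mutation, so no effect of it could be measured, and no difference between barcodes had a replicate check. Intervals are exact 95% intervals that cover counting error only. The barcodes consist of 2 segments of 8 bases, and each is treated as a spot that can hold several cells. More cells of a type and more RNA per cell therefore cannot be told apart. The members chosen by this RNA score held 292745 of 8726497 UMIs and 1509877 of 47109447 chromatin fragments.

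The lining of the nose and the larger airways is a mixed epithelium of secretory cells, multiciliated cells and keratin-rich basal cells. The ependyma, which lines the brain ventricles, also bears motile cilia, but it descends from radial glia and keeps many glial genes. Genes of the ciliary axoneme are therefore shared between both linings, whereas mucins, airway surface proteins, keratins and claudins mark the first and glial genes the second. Both linings switch on ciliary genes through the forkhead factor Foxj1 and RFX factors.

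The members were selected on the score, so the following values describe the selection. The score ranged from 0.174% to 0.691% of gene UMIs in the members, with a median of 0.317%. Numbers of score UMIs, ordered on their own, ranged from 3 to 60 in the members, with a median of 16.5. In the other barcodes the median was 0.0190%, and 820 of the 1943 had no score UMI. The boundary was not a gap. The last member had 8 score UMIs of 4602 (0.174%), and the first barcode outside had 12 of 6950 (0.173%). Of the 3079 score UMIs of the series, 1021 lay in the members. Wfdc2, a secreted whey-acidic-protein family member of airway epithelium, was seen in 48 members and 253 other barcodes. Muc5b, a gel-forming mucin, was seen in 34 members and 118 others.

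**Figure D1:**
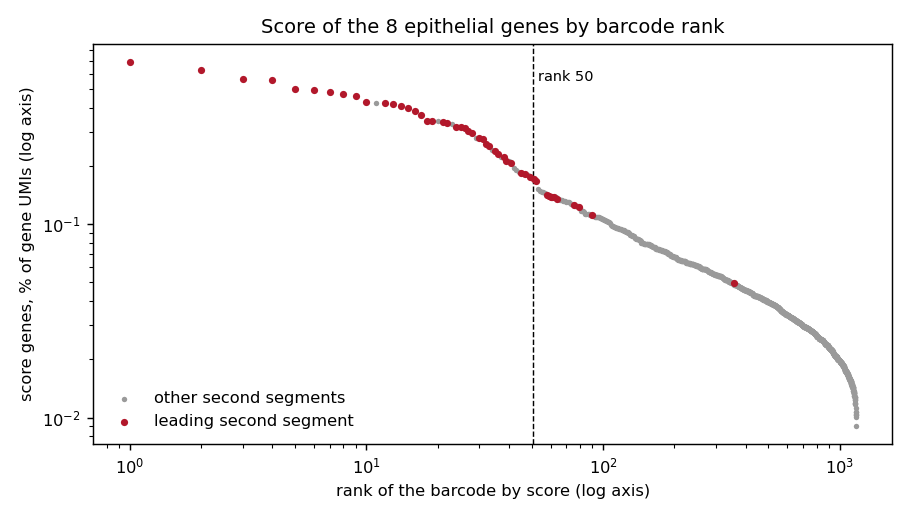
Share of gene UMIs taken by the 8 score genes in each barcode (y axis, %, log scale) against its rank (x axis, log scale). Barcodes with a score of 0 are left out; red points carry the leading second barcode segment, which 37 of the 50 barcodes left of the dashed line share.

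The members differed from the other barcodes in depth and in fragment length. They had a median of 5139.5 UMIs (1532 to 10946) against 4131, and a median of 29894 fragments (7390 to 48240) against 21569. Fragments shorter than the DNA of 1 nucleosome made up a median of 53.6% of fragments in the members and 45.2% in the others. Mitochondrial RNA was similar, at a median of 0.756% of UMIs against 0.719%.

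The members were concentrated on 1 of the 48 second barcode segments. This leading segment was carried by 37 of the 50 members, or 74% (59.7% to 85.4%, exact Clopper-Pearson interval), and by 12 of the 1943 other barcodes, or 0.618% (0.320% to 1.08%). Thus 37 of its 49 barcodes were members. A pair of further second segments held 6 members each, and another held 1. The first segments were spread: 38 of 50 occurred among the members, none in more than 3. Positions of the segments in the tissue were not used here, and whether the leading segment follows a strip of tissue or of the device was not tested.

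RNA outside the score genes was compared next. Levels are UMIs of a gene scaled to a common total of gene UMIs (counts per 1e6, CPM), summed over the members or over the others, and a gene counted as different when the ratio of the summed levels, with 20 CPM added to each, was at least 2 in either direction. By this rule 358 of 15734 genes with at least 20 UMIs were higher in the members (2.28%) and 60 were lower (0.381%). Because the members were chosen in the same RNA library, these counts are a description. They also depend on the added level: with 5 CPM, 941 genes were higher and 793 lower, and with 50 CPM, 118 and 5. Of the 358 genes, 39 were on a list of motile cilium genes, 27 on the secretory, simple or basal epithelium lists and 285 on no list used here.

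Among genes with at least 20 UMIs in the members, the highest ratio after this addition belonged to Olfm5 (ENSMUSG00000044265, minus strand of chromosome 7 in GRCm38, start site at 104164831), which encodes an olfactomedin-domain protein. It had 88 UMIs in 30 members and 108 UMIs in 99 other barcodes, or 301 CPM (241 to 370) against 12.8 (10.5 to 15.5). Reg3g, a secreted antimicrobial lectin of epithelial surfaces, had 66 UMIs in 32 members and 104 in 94 others, a ratio of 18.3 (13.2 to 25.1). Msln, which encodes the surface protein mesothelin, had 47 UMIs in 25 members and 70 in 70 others, a ratio of 19.3 (13.1 to 28.4). Ratios printed for single genes are without the added 20 CPM. No single member held most of these UMIs, but most of those of Olfm5 (79 of 88) and Reg3g (64 of 66) lay in the members that carry the leading segment. The highest single member held 14.8% of the Olfm5 UMIs, 9.09% of those of Reg3g and 8.51% of those of Msln.

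Epithelial structure and its regulators formed the next group. Krt19, a keratin of simple epithelia, was detected in 41 of 50 members and reached 304 CPM (244 to 374) against 27.5 (24.1 to 31.3) in the others. Ehf, an ETS-family transcription factor of epithelia, had 44 UMIs in 24 members and 59 in 56 others, a ratio of 21.5 (14.2 to 32.3). Cldn7, a tight-junction claudin, was 11.2-fold higher (8.13 to 15.4). The ratio of Klf5, an epithelial zinc-finger factor, was 7.86 (5.59 to 10.9), and that of Krt15, a keratin of basal cells, was 8.28 (5.92 to 11.4). S100a6 and Lgals3, which encode a calcium-binding protein and galectin-3, had ratios of 7.18 (5.65 to 9.05) and 9.94 (6.72 to 14.4). Isg20, an exonuclease gene, had a ratio of 8.83 (6.10 to 12.6). With the others weighted by second segment and 20 CPM added, S100a6 (1.86), Krt15 (1.76) and Isg20 (1.46) did not reach 2-fold. This weighting rests mostly on 12 barcodes of the leading segment outside the members, which held 11, 6 and 7 UMIs of these genes.

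Axonemal genes made up much of the rest of the 25 genes with the highest ratios. Dnah12 and Dnah3, which encode dynein heavy chains of the axoneme, had ratios of 11.4 (8.07 to 15.9) and 13.4 (9.09 to 19.6). Rsph1, a radial spoke subunit, was 13.1-fold higher (8.71 to 19.3), and Drc3, of the nexin-dynein regulatory complex, was 10.2-fold higher (7.08 to 14.5). Cfap43 had a ratio of 9.13 (6.67 to 12.3). Ccdc78, which takes part in the multiplication of centrioles in multiciliated cells, had a ratio of 13.7 (9.17 to 20.2). The ratios of Tmem212, Ccdc181 and Ccdc162 were 14.4, 9.27 and 8.81. Under the same weighting Ccdc78 (1.99), Tmem212 (1.97) and Cfap43 (1.43) did not reach 2-fold. The 12 leading-segment barcodes outside the members held 4, 4 and 10 UMIs of these genes, so few UMIs decide these values. Gm19935, 1700016K19Rik, AU040972 and Smim22, for which no role is given here, had ratios of 21.0, 13.9, 19.6 and 9.37.

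Among airway and nasal secretory genes outside the score, the members had 346 UMIs against 1159 in the others, 1182 CPM against 137. The ratio was 8.60 (7.61 to 9.71), and 6 of the 10 genes with enough UMIs were at least 2-fold higher and none was lower. With the other barcodes weighted by second segment as the members are, it was 1.71. Over all genes outside the score the median ratio was 0.98. Bpifa1, a secreted protein of the airway surface, led the list, ahead of Reg3g, with 145 UMIs in 38 members and 559 in 438 others, a ratio of 7.47 (6.18 to 8.99). A single member held 24 of its UMIs, or 16.6%, and with the others weighted by segment its ratio with 20 CPM added was 1.52. Cyp2f2, a monooxygenase of club cells, had 27 UMIs in 21 members and 85 in 81 others. Muc16, a membrane mucin, had 26 against 50 UMIs, Ltf, which encodes lactoferrin, 19 against 48, and Agr2, a disulfide isomerase needed for mucin folding, 18 against 28.

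The secretoglobins were rare. Scgb1a1, the classical club cell product, had no UMI in any barcode, and a floor of 3 counts, the limit set for a count of 0, is 10.2 CPM in the members. Scgb3a2 had 7 UMIs, each in a different member, and 3 in the others. Scgb3a1 had 5 UMIs in 5 members and 4 in the others. Of the 30 genes of the list, 12 had no UMI in the members, among them Tff3, Dmbt1, Pigr and Sftpd.

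Lists that separate regions of the airway were less uniform. Odorant-binding and nasal gland genes had 3 UMIs in the members and 148 in the others, a ratio of 0.58 (0.12 to 1.74). Obp2a, Dcpp3 and Muc19 had 1 UMI each, and 15 of the 18 genes found in the files had none. Among genes of olfactory sustentacular cells, the supporting cells of the olfactory epithelium, the summed ratio was 7.31 (4.86 to 10.7), but it rested on 34 UMIs and was 4.43 without Sec14l3 and 1.99 with the others weighted by second segment. Sec14l3 gave 20 of these in 17 members, Cyp2a5 and Fmo2 gave 6 each, and Cyp2g1, a defining gene of that cell, had none. Olfactory sensory neuron genes did not stand apart in sum, with a ratio of 1.01 (0.89 to 1.16). None of 12 genes was called in either direction, beside 2.28% called higher and 0.381% lower over all genes. Ebf1, Ebf2 and Gnal gave 92, 27 and 25 of the 230 UMIs in the members, and had 2828, 940 and 712 UMIs in the others.

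Of alveolar genes, Sftpc, which encodes surfactant protein C, had 18 UMIs in 13 members and 31 in 30 other barcodes, a ratio of 16.7 (8.81 to 30.9). Within the leading segment it had 63.2 CPM in the members and 47.6 CPM, on 3 UMIs, in the other barcodes. Lyz2, also an immune gene, had 12 against 36 UMIs. Sftpb and Sftpa1 had no UMI in the members, and Abca3 and Lpcat1 had ratios of 0.92 (0.59 to 1.38) and 0.81 (0.49 to 1.26). The whole list had a ratio of 1.56 (1.26 to 1.91), with 2 of 9 genes called higher. Nkx2-1, a lung and ventral brain factor, had 1 UMI in the members.

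Transcription factors of head and airway epithelium gave a summed RNA ratio of 0.92 (0.82 to 1.03), whereas the median of the genes was 1.13. Sox11, a factor of immature neurons as well, supplied 167 of the 303 UMIs and had a ratio of 0.66 (0.56 to 0.77). Without it the ratio of the list was 1.80. Pax9, a factor of pharyngeal, oral and nasal epithelium, had 20 UMIs in 17 members and 53 in 51 others, a ratio of 10.9 (6.16 to 18.49). Eya2, a transcriptional coactivator of eye and placode development, had 26 against 264 UMIs, a ratio of 2.84 (1.82 to 4.25). Within the leading segment it had 81.3 CPM in the members and 127 CPM, on 8 UMIs, in the other barcodes. Foxe1, of the thyroid and oral lineage, had 7 against 31 UMIs.

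Simple epithelium genes had 411 UMIs in the members and 1547 in the others, a ratio of 7.65 (6.85 to 8.54), with 13 of 24 genes called higher and none lower. The ratio was 2.18 with the others weighted by segment. After Krt19, Cldn7 and Ehf came Krt7, another simple-epithelium keratin, with 30 against 79 UMIs and a ratio of 10.9 (6.94 to 16.9). Epcam, an adhesion protein of most epithelia, had 24 against 123 UMIs and a ratio of 5.62 (3.47 to 8.76). Within the leading segment its level was alike, at 94.9 CPM in the members and 95.2 CPM, on 6 UMIs, in the other barcodes. Grhl2, a grainyhead factor that maintains epithelial junctions, had 20 against 67 UMIs and a ratio of 8.60 (4.94 to 14.4). Basal epithelium genes had a ratio of 4.48 (3.89 to 5.14), and 8 of 16 were called higher. It was 1.45 when the other barcodes were weighted by second segment as the members are. Krt15, Bcam and Itgb4, which encodes the beta 4 integrin of hemidesmosomes, led with 50, 39 and 27 UMIs. Trp63, the regulator of basal cells, had 8 UMIs in 7 members and 46 in 45 others, a ratio of 5.01 (2.04 to 10.7). Stratified skin and oral genes had a ratio of 2.16 (1.61 to 2.85) with 1 of 7 genes called, and 1.28 under the weighting by segment. Krt4 had 22 against 154 UMIs.

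Motile cilium genes were the most abundant of the epithelial groups in the members. They had 1468 UMIs against 9029, or 5015 CPM (4761 to 5278) against 1071 (1049 to 1093). The ratio was 4.68 (4.43 to 4.95), and 39 of 57 genes were called higher and none lower. Weighting the others by segment gave 1.97. By barcode, cilium UMIs made up 0.139% of gene UMIs in the lowest member, 0.499% in the median and 0.892% in the highest. In the others the median was 0.0985% and the highest 0.442%. The ranges of members and others therefore overlapped. Tppp3, a tubulin-binding protein, had 163 UMIs in 43 members and 1024 in 744 others, a ratio of 4.59 (3.86 to 5.42). Riiad1 had 76 against 442 UMIs, a ratio of 4.95 (3.83 to 6.33). Foxj1 had 36 UMIs in 22 members and 177 in 165 others, a ratio of 5.86 (3.98 to 8.42). Rfx3, an RFX factor with a wide range of tissues, had 46 against 1351 UMIs and a ratio of 0.98 (0.71 to 1.32). None of the 60 listed cilium genes was at 0 in the members.

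Brain ependyma and radial glia genes were lower in sum. They had 4386 CPM in the members and 6702 in the others, a ratio of 0.65 (0.62 to 0.69), with none of 28 genes called higher and 1 called lower. Over all genes 2.28% were called higher and 0.381% lower, so the absence of higher calls is not a result about this list. Nnat, a widely expressed brain gene, supplied 593 of the 1284 UMIs, and without it the ratio was 0.81. Dbi had a ratio of 0.64 (0.51 to 0.78) and Slc1a3, the glial glutamate transporter GLAST, 0.60 (0.41 to 0.84). Ptprz1 had a ratio of 0.86 (0.68 to 1.06). Vim, an intermediate filament gene of radial glia and of mesenchyme, went the other way, with 84 against 1564 UMIs and a ratio of 1.55 (1.23 to 1.93). No ependyma gene was at 0 in the members, and every member held between 0.208% and 0.810% of UMIs from the list, a range inside that of the others (0.179% to 1.54%). The medians were 0.437% and 0.668%.

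Choroid plexus genes had a ratio of 0.69 (0.62 to 0.76), or 1.02 with the others weighted by segment. None of 16 was called, beside 2.28% called higher and 0.381% lower over all genes. The absence of calls is thus not a result about this list. Ttr, the transthyretin gene of choroid plexus, had 213 UMIs spread over all 50 members and a ratio of 0.57 (0.50 to 0.65). Neuron genes had a ratio of 0.70 (0.67 to 0.73), with 2 of 16 genes called lower. The 10 lowest genes with at least 200 UMIs were Btaf1, Nrsn1, Spock3, Rab3a, Nap1l5, Pak6, Nfrkb, Selenop, Rtl8a and Armcx2. Rab3a, a synaptic vesicle GTPase, had 17 UMIs in the members and 1496 in the others, a ratio of 0.33 (0.19 to 0.53). Within the leading segment it had 49.7 CPM in the members and 63.4 CPM, on 4 UMIs, in the other barcodes. Spock3, an extracellular proteoglycan gene, had 12 against 1148 UMIs and a ratio of 0.30 (0.16 to 0.53). Within the leading segment the direction turned, with 45.2 CPM in the members and 15.9 CPM, on 1 UMI, in the other barcodes. Nfrkb had no UMI in the members and 241 in the others. The remaining 7 had 1 to 12 UMIs in the members.

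RNA of skeletal muscle and connective tissue genes was also higher in the members, a direction that turned when the other barcodes were weighted by second segment (0.74 for both lists). Skeletal muscle genes had 11884 CPM against 6505, a ratio of 1.83 (1.76 to 1.89), with 1 of 14 genes called. Mylpf, a myosin light chain, had a ratio of 2.09 (1.92 to 2.27). Fibroblast, cartilage and bone genes had a ratio of 1.44 (1.33 to 1.56), led by Col1a1 with 412 UMIs. Across the 50 members the shares of cilium and muscle UMIs had a Pearson correlation of -0.50 and a Spearman correlation of -0.56, whereas those of secretory and cilium UMIs had 0.13 and 0.11. These are descriptions of barcodes of 1 library, whose shares sum to a fixed whole. Blood, endothelium, Schwann cell and pituitary genes had summed ratios between 0.61 and 0.81. The direction turned for pituitary genes with the others weighted by segment (1.30), for Schwann cell genes without their most abundant gene (1.16) and for endothelium genes in the 13 members of other segments (1.10). Immune genes had 1.14 (0.84 to 1.51).

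**Figure D2:**
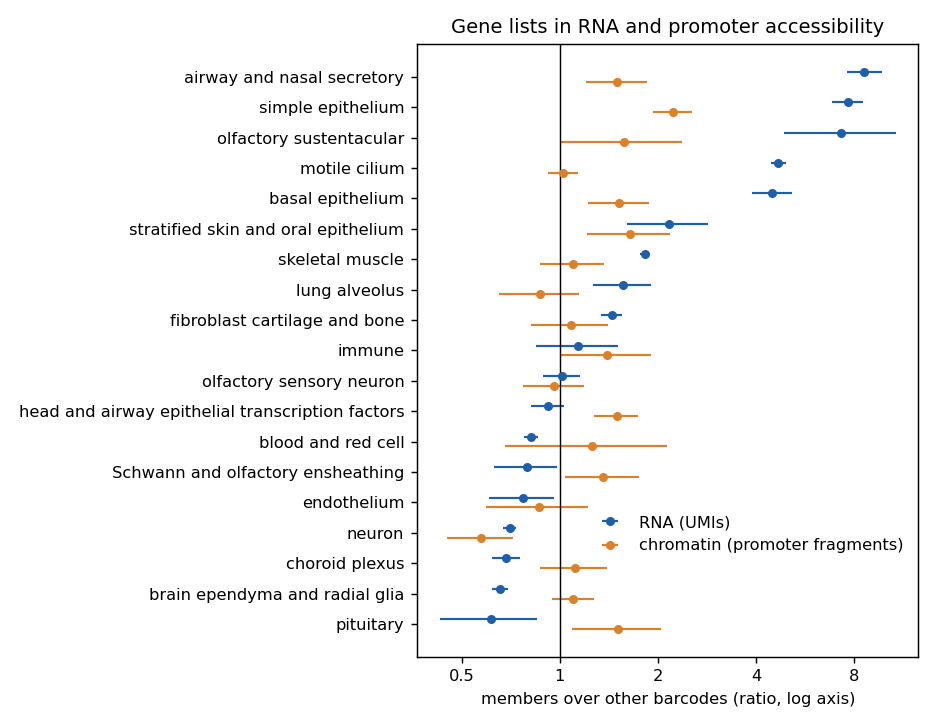
Ratio of the summed level in the 50 members to that in the other barcodes (x axis, log scale) for 19 gene lists, in RNA (blue, UMIs) and chromatin (orange, promoter fragments), with exact 95% intervals. Score genes are left out of the lists, and so is the odorant-binding list, with 3 UMIs; motile cilium lies at 4.68 in RNA and 1.02 in chromatin, simple epithelium at 7.65 and 2.22.

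Chromatin was compared in the same barcodes, a measurement that took no part in choosing them. Fragments overlapping 1 kb on either side of each start site were expressed as CPM of all such fragments, and 198538 lay in the members. By the same rule of 2-fold with 20 CPM added, 155 of 28572 promoters were higher in the members (0.542%) and 249 were lower (0.871%). Of the 358 genes higher in RNA, 356 had enough promoter fragments, and 17 of these promoters were called higher, or 4.78%. Their summed promoter ratio was 1.29 (1.24 to 1.34), and 236 of the 356 lay above 1. For the 60 genes lower in RNA it was 0.85 (0.78 to 0.93), with no promoter called higher. All 8 score gene promoters had ratios above 1, with a sum of 2.15 (1.63 to 2.81) on 59 fragments. Among them Krt8 had 3.82 (1.68 to 7.68) and Lypd2 3.70 (1.91 to 6.60), while Pglyrp1 had 1.16 (0.42 to 2.58).

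Simple epithelium promoters had the highest chromatin ratio of the 20 lists, with 228 fragments in the members and 3097 in the others, a ratio of 2.22 (1.93 to 2.54). Of 29 promoters, 4 were called higher: Cldn3, Ehf, Elf3 and Esrp1. Cldn3, a claudin, had 23 against 189 fragments and a ratio of 3.67 (2.27 to 5.67). Ehf had 9 against 53 and a ratio of 5.12 (2.22 to 10.5). Elf3, an ETS factor of epithelia, had 17 against 165 and a ratio of 3.11 (1.77 to 5.13). Esrp1, a splicing regulator of epithelial cells, had 11 against 87 and a ratio of 3.81 (1.84 to 7.17). Cldn7 had a ratio of 4.57 (1.39 to 11.8) on 5 fragments and was not called. When only fragments shorter than the DNA of 1 nucleosome were used, the ratio of the list was 2.81, and with the other barcodes weighted by second segment it was 1.22.

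The secretory list had a promoter ratio of 1.498 (1.201 to 1.85), with 1 of 30 called, Scgb3a1, at 9 against 64 fragments. Over all promoters 0.542% were called higher, so 1 call is not a result about a list of this size. The basal list had 1.52 (1.22 to 1.87), or 1.01 with the others weighted by segment, with Krt17 called at 11 against 74 fragments. Among the head and airway factors the promoter ratio was 1.49 (1.28 to 1.74). Their RNA ratio was 0.92 with Sox11 and 1.80 without it. Pitx1, a factor of oral ectoderm and pituitary, had 14 against 64 fragments and a ratio of 6.60 (3.42 to 11.9) although its RNA had 2 UMIs in the members, and Pax9 had 11 against 72 and a ratio of 4.61 (2.20 to 8.75). Of the promoters called higher, Isg20 had 20 against 130 fragments, a ratio of 4.64 (2.74 to 7.47), and Arhgef38, a guanine nucleotide exchange factor gene, had 18 against 86, a ratio of 6.31 (3.57 to 10.6). Arhgef38 RNA was also called higher, with 13 UMIs in 11 members and 36 in 35 others. The Klf5 promoter, which was not called, had 23 against 326 fragments, a ratio of 2.13 (1.33 to 3.25).

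Motile cilium promoters did not follow their RNA. The list had 359 fragments in the members and 10593 in the others, a ratio of 1.02 (0.92 to 1.14), and none of 58 promoters was called in either direction. Over all promoters compared, 0.542% were called higher and 0.871% lower, so the absence of calls is not a result about this list. Foxj1 had 12 against 325 fragments, a ratio of 1.11 (0.57 to 1.97). Tppp3 had 0.66 (0.34 to 1.16), and Tmem212 had 3.71 (1.54 to 7.76) on 8 fragments, the highest of the list. Ependyma and radial glia promoters had a ratio of 1.10 (0.95 to 1.27) with 1 of 28 called lower, and choroid plexus promoters 1.11 (0.87 to 1.40). Neuron promoters were lower, at 0.57 (0.45 to 0.72) or 0.91 with the others weighted by segment, with 2 of 16 called lower. The pituitary list had a promoter ratio of 1.51 (1.09 to 2.04) against an RNA ratio of 0.61 (0.43 to 0.85). Olfactory sensory neuron promoters had 0.96 (0.77 to 1.19), with 1 of 17 called higher. That was Gng8, with 26 against 287 fragments and a ratio of 2.73 (1.76 to 4.09).

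Peaks, which the deposited files list for the series as a whole, extended the comparison beyond promoters. Values are CPM of all cut sites counted in peaks, 534491 of them in the members. Cut sites come in pairs from 1 fragment, so counting intervals for peaks are too narrow. With 5 CPM added, 4202 of 86001 peaks with at least 50 counts were at least 2-fold higher in the members (4.89%) and 9728 were at least 2-fold lower (11.3%). Summed over each set, the higher peaks held 55718 counts in the members and the lower peaks 6015. The lower peaks thus held fewer counts in the members than there are such peaks. With so few counts, calls in either direction can arise from counting error alone. The share of calls to be met without any difference is not given here, so both numbers of peaks are descriptions. Of the higher peaks 11.9% lay within 1 kb of a start site, against 14.2% of the lower peaks and 18.8% of all peaks compared. Of 78 peaks nearest to a simple epithelium gene, 18 were higher, or 23.1% (14.3% to 34.0%), the highest share among the 20 lists. They lay near 11 genes, with 3 each at Grhl2 and Tmprss2 and 2 each at Ehf, Epcam and Esrp1, and 16 of them were over 1 kb from a start site. Head and airway factors had 12 of 115 peaks higher (10.4%), cilium genes 6 of 215 (2.79%), ependyma genes 4 of 100 (4%) and neuron genes 1 of 89 (1.12%). The secretory list had 6 of 55 (10.9%, 4.11% to 22.2%), an interval that includes the 4.89% of all peaks. In lists of other tissues, Schwann and olfactory ensheathing cells had 8 of 58 (13.8%, 6.15% to 25.4%). The intervals of muscle, with 4 of 26 (15.4%, 4.36% to 34.9%), and of olfactory sensory neurons, with 7 of 61 (11.5%, 4.74% to 22.2%), included the share of all peaks. Near the 358 genes higher in RNA, 111 of 1113 peaks were higher, or 9.97% (8.28% to 11.9%).

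The peak with the highest ratio after the addition overlapped the start of Gm28710 (chr5:16791148-16792161). It had 36 counts in 16 members and 49 counts in 24 other barcodes, a ratio of 22.2 (14.0 to 34.8). The second lay near Gm49725 (chr16:93532919-93533922), with 38 counts in 15 members and 84 in 45 others. Peaks over the starts of Cnksr1, a scaffold protein gene (chr4:134238029-134238906), and Arhgef38 (chr3:133234725-133235627) had ratios of 9.28 (6.31 to 13.4) and 9.97 (6.51 to 14.9). The other 6 of the highest 10 were 3784 to 121450 bp from a start site, nearest to Cdc42ep3, Mthfd1l, 2810430I11Rik, Alyref2, Chit1 and Hes1. Each of the 10 peaks had counts in 10 to 19 members.

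The sequence of the highest peaks is shown because regulators bind such sites, and motif letters can be read from it. The first 4 are the central 300 bases of peaks with the highest ratios that hold no exon and at least 1 chosen motif. Those motifs, described further on, were grainyhead, RFX, forkhead, p53 family, AP-1 and ETS. Peaks with only a proneural bHLH or CTCF match were passed over. All are from GRCm38, plus strand, with motif matches in capitals (ETS, AP-1 or proneural bHLH). The site within Col5a1 (chr2:27939532-27939831) had 50 counts in 19 members and 198 in 105 others, the Chit1 site (chr1:134106805-134107104) 29 against 90, the Zfp956 site (chr6:47984035-47984334) 23 against 69 and the Rassf6 site (chr5:90689743-90690042) 19 against 52. The last 3 are intergenic and 3784, 30352 and 48773 bp from the start of the gene named.
Col5a1 intron: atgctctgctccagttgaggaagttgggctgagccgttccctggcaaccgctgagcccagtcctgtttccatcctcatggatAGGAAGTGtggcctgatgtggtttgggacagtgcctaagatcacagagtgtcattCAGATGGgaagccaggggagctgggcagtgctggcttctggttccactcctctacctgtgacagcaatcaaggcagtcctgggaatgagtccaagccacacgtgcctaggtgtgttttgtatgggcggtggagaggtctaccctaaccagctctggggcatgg
Chit1 side: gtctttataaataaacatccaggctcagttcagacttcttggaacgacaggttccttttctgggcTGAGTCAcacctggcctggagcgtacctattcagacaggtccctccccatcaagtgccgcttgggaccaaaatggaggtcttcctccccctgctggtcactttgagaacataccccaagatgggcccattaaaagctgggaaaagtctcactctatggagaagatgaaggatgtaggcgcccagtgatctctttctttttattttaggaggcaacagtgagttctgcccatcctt
Zfp956 side: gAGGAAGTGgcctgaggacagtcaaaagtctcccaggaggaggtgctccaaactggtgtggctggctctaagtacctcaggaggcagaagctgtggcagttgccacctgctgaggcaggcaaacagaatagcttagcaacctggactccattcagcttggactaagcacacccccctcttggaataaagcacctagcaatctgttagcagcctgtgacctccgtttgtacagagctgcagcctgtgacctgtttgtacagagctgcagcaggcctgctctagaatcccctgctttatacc
Rassf6 side: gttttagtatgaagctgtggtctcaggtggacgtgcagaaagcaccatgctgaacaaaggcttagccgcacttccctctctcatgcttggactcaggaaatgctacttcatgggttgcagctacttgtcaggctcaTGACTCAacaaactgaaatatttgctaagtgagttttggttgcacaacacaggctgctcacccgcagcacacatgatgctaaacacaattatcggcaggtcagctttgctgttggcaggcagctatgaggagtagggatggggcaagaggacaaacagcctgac

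A further site holds the forkhead motif and was chosen after the motif shares were seen. It lies within an intron of Slc1a5 (chr7:16792237-16792536), again on the plus strand with the motif in capitals. The Slc1a5 site had 22 counts in 10 members and 71 in 38 others, a ratio of 9.36 (5.52 to 15.3).
Slc1a5 intron: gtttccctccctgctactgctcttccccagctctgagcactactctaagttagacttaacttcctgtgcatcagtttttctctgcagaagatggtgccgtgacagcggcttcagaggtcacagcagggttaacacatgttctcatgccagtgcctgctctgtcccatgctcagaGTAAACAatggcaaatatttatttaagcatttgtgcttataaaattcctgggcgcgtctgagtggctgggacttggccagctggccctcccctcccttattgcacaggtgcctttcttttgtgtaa

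Motif letters were counted on both strands in the central 500 bases of the peaks on assembled chromosomes, 85944 in all and 4201 of those higher. The forkhead letters TGTTTAC occurred in 10.5% of higher peaks (9.63% to 11.5%), in 6.66% of all peaks compared and in 5.86% of lower peaks. In the 467 peaks at least 3-fold higher the share was 16.1% (12.8% to 19.7%). AP-1 letters (TGANTCA) occurred in 21.2% of higher peaks (20.005% to 22.5%) and 15.1% of all, and ETS letters (AGGAAGTG) in 7.19% (6.43% to 8.01%) and 5.42%. Matches of the RFX X-box were rarer in higher peaks, at 0.214% (0.0980% to 0.406%), than in all, at 1.01%, and reached 2.22% in lower peaks. Grainyhead letters (AACCGGTT) occurred in 0.238% and 0.208%, and the p53 family motif in 1.67% and 1.41%. Proneural bHLH letters (CAGATGG) occurred in 12.3% and 12.4%, and the core CTCF motif in 0.762% and 0.993%. Median GC content was 50.4% in higher peaks and in all, and repeats made up a mean of 11.9% and 11.6% of the bases searched. Matches of different motifs may overlap, and a match is not a bound site. Both the higher and the lower peaks can include calls that arose from counting error.

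**Figure D3:**
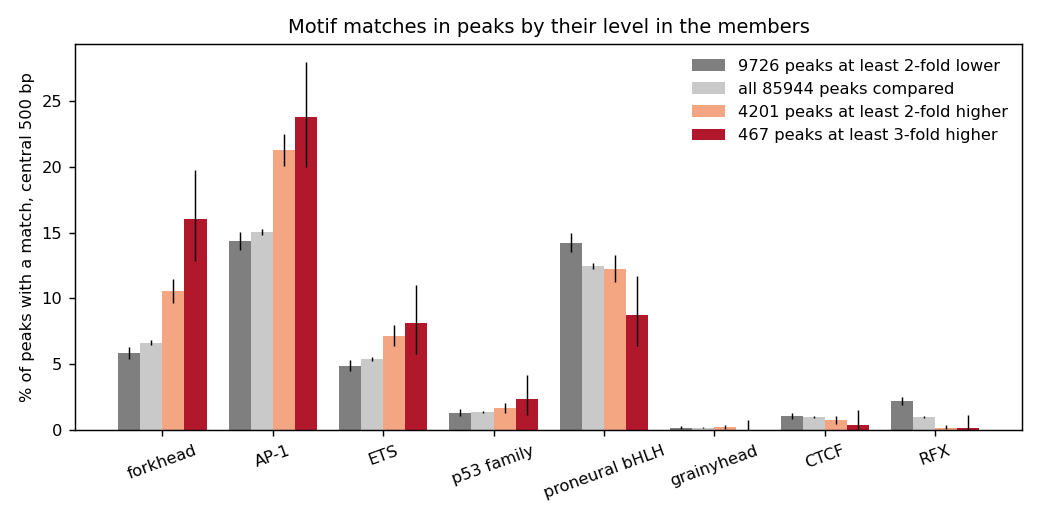
Share of peaks (y axis, %) with a motif match in the central 500 bp, for 8 motifs and 4 sets of peaks, with exact 95% intervals. Forkhead matches go from 5.86% in lower peaks to 16.1% in peaks at least 3-fold higher; RFX matches go the other way, from 2.22% to 0.214%.

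RNA of the secretory and simple epithelium lists was lower in each successive band of ranks, and that of the cilium list was highest in ranks 11 to 25, although intervals of neighbouring bands partly overlapped. Secretory genes outside the score had 2169 CPM (1841 to 2539) in ranks 1 to 10, 774 (629 to 943) in ranks 26 to 50, 383 in ranks 51 to 100 and 130 beyond rank 200. Cilium genes had 5276 CPM (4756 to 5836) in ranks 1 to 10, 5736 (5261 to 6243) in ranks 11 to 25 and 4341 (3988 to 4718) in ranks 26 to 50, and then 2162 in ranks 51 to 100. Muscle genes ran the other way within the members, from 9012 CPM (8329 to 9736) in ranks 1 to 10 to 14924 (14262 to 15609) in ranks 26 to 50. For cilium genes ranks 51 to 100 thus still lay above the 1033 CPM of the rest. The ranks come from the score in the same RNA library, so a fall of RNA along them is partly set by the order. In ranks 51 to 100, 11 of 50 barcodes carried the leading segment, against 1 of 1793 beyond rank 200. Promoter fragments of simple epithelium genes went from 1280 CPM (956 to 1679) in ranks 1 to 10 to 662 (553 to 787) in ranks 51 to 100 and 511 beyond rank 200. Cilium promoters lay between 1648 and 2117 CPM in every band.

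**Figure D4:**
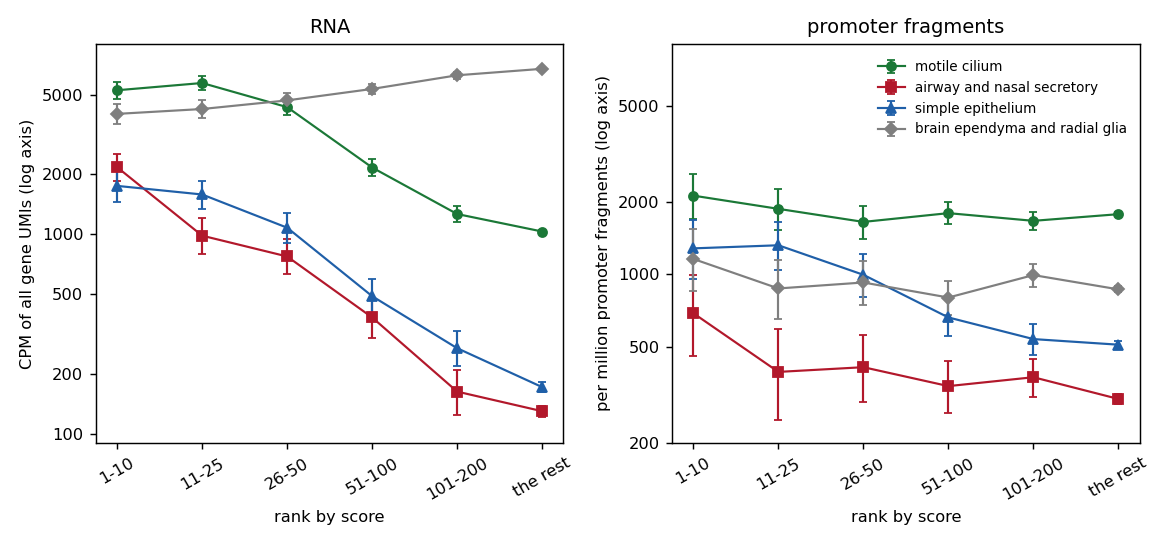
Summed level of 4 gene lists by rank of the score, in RNA (left, CPM) and promoter fragments (right, CPM), on log axes with exact 95% intervals. Cilium RNA is 5276 CPM in ranks 1 to 10, highest in ranks 11 to 25 at 5736 and 1033 beyond rank 200, whereas cilium promoters stay between 1648 and 2117.

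Secretory gene RNA differed between members of the leading and of other second segments by more than counting error, whereas the intervals of cilium and simple epithelium genes included 1. The 37 members with the leading segment had 1396 CPM of secretory genes (1244 to 1560), and the 13 other members had 518 (365 to 715), a ratio of 2.69 (1.91 to 3.90). For cilium genes the values were 5046 and 4919 CPM, a ratio of 1.03 (0.91 to 1.16), and for simple epithelium genes 1423 and 1345, a ratio of 1.06 (0.84 to 1.34). Reg3g had 64 UMIs in the leading segment and 2 in the other members, a ratio of 10.3 (2.74 to 87.0). Bpifa1 had 136 and 9 UMIs, a ratio of 4.87 (2.49 to 10.9), and Olfm5 had 79 and 9, a ratio of 2.83 (1.42 to 6.42). Outside the score, Gm19935 went the other way, with 37 and 28 UMIs and a ratio of 0.43 (0.25 to 0.72). Values of the score genes, on whose sum the members were chosen, describe the selection only. In sum they were 1.46-fold (1.24 to 1.72) higher in the leading-segment members than in the other members. All 10 barcodes of ranks 1 to 10 carried the leading segment. The score itself holds 5 secretory genes, so for secretory RNA, segment and rank by score cannot be told apart here. Muc5b had 86 UMIs in the leading segment and 3 in the other members, whereas Krt18 had 93 and 27 UMIs, 420 and 378 CPM. Promoters of the secretory list gave a ratio of 0.86 (0.54 to 1.39).

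**Figure D5:**
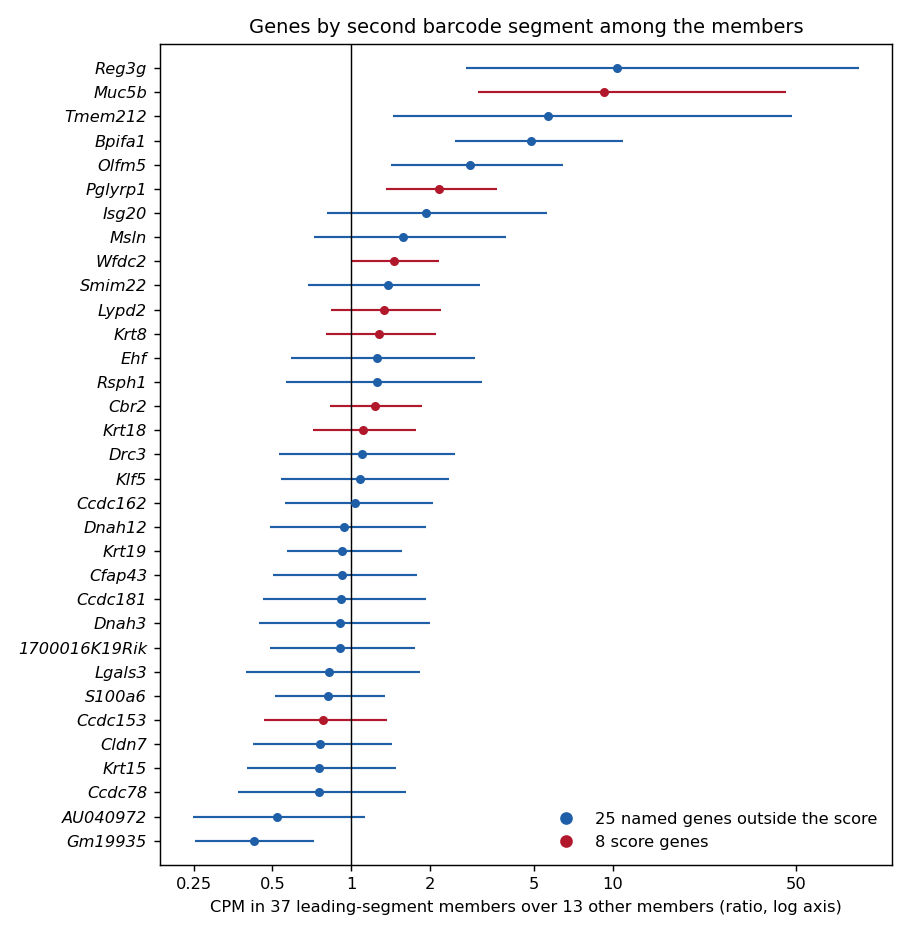
Ratio of CPM in the 37 members with the leading second segment to that in the 13 other members (x axis, log scale), for 25 genes outside the score (blue) and the 8 score genes (red), with exact 95% intervals. Outside the score, Reg3g, Tmem212, Bpifa1 and Olfm5 lie above 1 with their whole interval, and Gm19935 below. Muc5b and Pglyrp1 also lie above 1, but their UMIs took part in choosing the members, so their ratios describe the selection.

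The 12 leading-segment barcodes outside the members were themselves unlike the rest. Their secretory genes had 793 CPM (589 to 1045) against 132 in barcodes of other segments outside the members, their cilium genes 2791 (2394 to 3235) against 1058, and their simple epithelium promoters 1027 CPM (749 to 1375) against 513. Their secretory promoters, on 10 fragments, had a ratio of 0.74 (0.35 to 1.36) and their cilium promoters 1.22 (0.98 to 1.49), intervals that include 1. Of these 12, 11 ranked between 51 and 100 by score, just outside the members. The other barcodes were weighted by second segment in proportion to the members' UMIs or promoter fragments, which gives these 12 most of the weight. The RNA ratio was then 1.71 for secretory genes, 2.18 for simple epithelium genes and 1.97 for cilium genes. The promoter ratio of simple epithelium genes was 1.22. Under this weighting the RNA ratio of ependyma and radial glia genes was 0.92, and those of choroid plexus (1.02), pituitary (1.30), muscle (0.74) and fibroblast, cartilage and bone genes (0.74) lay on the opposite side of 1 from the values above. Of the 25 genes with the highest ratios, 7 fell short of 2-fold under this weighting with 20 CPM added, as given above. The 13 members outside the leading segment were also set against all other barcodes. Their RNA ratios were 3.77 for secretory, 7.33 for simple epithelium and 4.59 for cilium genes, and their simple epithelium promoter ratio was 2.45. In these 13 members Reg3g (1.49, from 7.59), Tmem212 (1.67) and Bpifa1 (1.69, from 5.97) fell short of 2-fold with 20 CPM added. Segment and epithelial content cannot be told apart within the leading segment.

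Other barcode groups of 50 built on Ttr, skeletal muscle genes or pituitary hormones were set beside the members. The members had 0, 6 and 0 barcodes in common with them. Cilium RNA was 5015 CPM (4761 to 5278) in the members, 1426 (1252 to 1618) in the Ttr-rich group, 1583 (1429 to 1749) in the muscle-rich group and 1035 (887 to 1202) in the pituitary-rich group. Simple epithelium promoters had 1148 CPM of fragments (1004 to 1308) in the members, against 469 (351 to 613), 464 (381 to 559) and 560 (465 to 669). Ependyma and radial glia RNA was 4386 CPM in the members, close to the 4567 of the muscle-rich group and below the 6854 and 7708 of the Ttr-rich and pituitary-rich groups.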

How the data were processed

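Gene UMI counts and peak cut-site counts were used as deposited in 1 matrix, and fragment counts as deposited in 1 fragment list. Per the file headers, cellranger-arc 2.0.1 with its mm10 reference (2020-A) made them, and the submitters' processing notes also name Seurat 4.0. How the 1993 matrix barcodes were chosen is not given in the sources used here. Barcodes were ranked by the summed UMIs of the 8 score genes over all gene UMIs, and the 50 highest were taken as members. The members and gene lists were chosen with earlier results of these data known.

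Counts were summed over members and over the others and divided by the summed totals. Genes and promoters needed 20 counts and peaks 50, and pseudocounts of 20 and 5 CPM were added for calls at 2-fold. Intervals are exact at 95% (Poisson for levels, Clopper-Pearson for shares, conditional binomial for ratios). UMIs collapse amplified copies, and fragments had been deduplicated. With 1 library of each kind no test was run. Peaks were called on all barcodes, of which the members are few, so a site open in the members alone could be missed.

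Named genes were the 25 with the highest ratio among genes with at least 20 UMIs in the members, the 10 with the lowest ratio among genes with at least 200 UMIs in all, the 3 with most UMIs in the members of a list, and defining genes at 0. Further genes named from the lists, and peaks and promoters beyond the 10 highest peaks, were chosen after their values were seen. Doublets were not called, since a spot can hold several cells. Python 3.11.15 with numpy 2.4.6, scipy 1.17.1, pandas 2.3.3 and matplotlib 3.10.9 was used, and the ratio and interval code was tested on simulated data. A few items are not reported here.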

Additional observations from a re-analysis of the deposited data

Results flagged for a closer look

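Chromatin fragments also carried barcodes that are not in the matrix, and these took no part in the comparisons above. They have no RNA counts here, so they could not be scored. For 1 barcode outside the matrix with the leading second segment, promoter fragments of the secretory list were 5.08 times the level in the other matrix barcodes (1.65 to 11.9, on 5 fragments), and those of the cilium list 2.13 times (1.10 to 3.73, on 12 fragments). For the 506 barcodes outside the matrix with other segments, the secretory list stood at 1.44 (1.25 to 1.65, on 226 fragments) and the simple epithelium list at 1.17 (1.03 to 1.31, on 306 fragments). The intervals cover counting error only, and the cause was not tested.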

How the results depend on the processing

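Of 825 values recomputed under the alternatives, 656 stayed within the interval or 1.5-fold limit set for them, 161 moved beyond it and 8 changed direction. A change of direction was counted for a list only where the interval of its main value excluded 1, so further values crossed 1. Of 325 values of the 25 genes with the highest ratios, 65 moved by over 1.5-fold and none changed direction. The 2-fold call was lost for Reg3g (1.49) with members of other segments alone, for Cfap43 (1.43), Isg20, Krt15, S100a6 and Ccdc78 (1.99) with others weighted by segment, and for Bpifa1 and Tmem212 under both. No paired analysis was possible because there is 1 library of each kind, and no replicate could be left out. Except where stated, the cause of a shift was not tested.

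With the 25 highest barcodes as members, the next barcodes up to rank 100 were left out of both groups. In this setting 201 genes were lower, and RNA ratios were 11.4 for secretory, 9.42 for simple epithelium, 5.31 for cilium and 0.616 for ependyma genes. The simple epithelium promoter ratio was 2.54, 7559 peaks were higher and 88% of members had the leading segment. With the 100 highest, 223 genes were higher and 10 lower, the same ratios were 6.49, 5.84, 3.68, 0.711 and 1.77, 1795 peaks were higher and the segment share was 48%. With others weighted by segment, 329 genes were lower, the ratios were 1.71, 2.18, 1.97, 0.922 and 1.22, and the cilium promoter ratio was 0.902. Under that weighting RNA ratios crossed 1 for choroid plexus (1.02), pituitary (1.30), muscle (0.738) and fibroblast genes (0.736), as did immune promoters (0.742). These 2 alternatives were added after seeing the data: with members of the leading segment alone, 123 genes were lower and the secretory ratio was 10.2; with members of other segments alone, 662 genes were higher and 823 lower, 11068 peaks were higher, the secretory ratio was 3.77, ependyma RNA and promoters were at 0.692 and 0.861, and endothelium RNA (1.10) and immune promoters (0.889) crossed 1.

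Counts of genes depended on the settings for low values. A minimum of 100 UMIs left 169 genes higher, a pseudocount of 5 gave 941 higher and 793 lower, and one of 50 gave 118 and 5. Without its gene with most UMIs the ependyma ratio was 0.809, and the ratios of head and airway factors (1.80, from 0.919) and Schwann cell genes (1.16) crossed 1. Fragments shorter than the DNA of 1 nucleosome gave a simple epithelium promoter ratio of 2.81. A peak pseudocount of 2 gave 7488 higher peaks, one of 10 gave 1558, and a fold of 3 gave 467. In those peaks motif shares were 16.1% for forkhead, 23.8% for AP-1, 8.14% for ETS, 2.36% for p53 family, 8.78% for bHLH, 0.428% for CTCF and 0% for grainyhead letters. In the central 300 bp they were 6.59%, 15.1%, 4.90%, 1.02% and 7.40% for the first 5, which follows from the shorter window.

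Depth limits rare genes most: a floor of 3 counts for a gene at 0 is 10.2 CPM in the members, and many promoters rest on fewer than 10 fragments in the members. Alternatives that used deeper barcodes, part of the score genes, other windows or other totals gave 1 further shift, the muscle RNA ratio of 1.503 when Krt8, Krt18 and Ccdc153 alone made the score.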
